A study of Setaria viridis with 40 samples.

Results

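The early transcriptional response to excess light was examined in leaves of *Setaria viridis*, a C4 grass in which carbon fixation is divided between mesophyll and bundle sheath cells. The comparison was that of plants moved to high light for 1 h (HL_1h, 900 µmol photons m-2 s-1) with plants kept at the growth light for the same 1 h (ctrl_1h, 250 µmol photons m-2 s-1). Its 8 libraries, 4 per condition, were taken by their labels from a series of 40 libraries in 10 conditions. All plants were the accession ME034 with no transgene or mutation named in the labels and were grown at a constant 31 °C for 13 days. The labels give the light of both conditions, but a temperature during treatment (31 °C) for ctrl_1h only. By the study's methods high light was also given at 31 °C, but in another chamber, while control plants stayed in theirs. Light and chamber therefore cannot be told apart here. Plants at high temperature for 1 h (HT_1h, 40 °C at the growth light, 4 libraries) and plants after 2 h or 4 h of high light with their own time-matched controls served for comparison. Each replicate (A to D) pooled 2 middle leaf segments of 2 cm from the fourth fully expanded leaves of 2 plants, so that p-values measure the spread between such pools. The leaf segments held all cell types, and fewer cells of a type and less RNA per cell cannot be told apart in them.

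Leaves that receive more light than carbon fixation can use form reactive oxygen species and lose photosystem II (PSII) reaction centres, whose D1 protein is degraded by thylakoid FtsH proteases and replaced. Known protective components include early light-induced proteins (ELIPs), relatives of the light-harvesting proteins that accumulate only under stress, the PsbS protein and the xanthophyll cycle, which open the heat-dissipating state of the antenna, and cyclic electron flow around photosystem I (PSI). Sugar produced in excess is sensed by the SnRK1 and TOR kinases and by trehalose 6-phosphate, and abscisic acid (ABA) and heat shock factors take part in light stress responses of other plants.

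RNA was measured by sequencing the 3′ ends of transcripts. Levels are given in the TPM of the deposited files, which are reads scaled to the same total in every library with no division by gene length, so a ranking of genes by TPM is one of reads. HL_1h libraries held 3094712 to 3953221 reads and ctrl_1h libraries 2596376 to 3634021, 1 read being worth 0.253 to 0.385 TPM. Along the first principal component, which carried 42.9% of the variance, HL_1h libraries lay at 40.3 to 46.5 and ctrl_1h libraries at -52.5 to -32.8. The second (17.7%) set ctrl_1h D apart at -54.8, with all others at -27.7 to 37.6, and this shallowest of the 8 libraries also had the lowest scaling factor (0.810, others 0.872 to 0.960). Where a call at HL_1h was lost when 1 library was left out, this is said beside the gene. Calls lost only under other settings are named in the last section. Mesophyll genes (5 markers) summed to 9823, 11090 and 12076 TPM (lowest, median and highest library) at HL_1h, against 7445, 10008 and 12908 TPM at ctrl_1h, and 1 of the 5 (*PEPC_A*) was called. Nearly all of this sum was *PPDK*, at 9647 to 11881 TPM at HL_1h and 7321 to 12770 TPM at ctrl_1h. *PEPC_A*, *CA_A*, *CA_B* and *NADP-MDH* lay between 10.8 and 67.8 TPM in these libraries, so the sum describes mainly 1 gene. Bundle sheath genes (6 markers) summed to 11425, 12607 and 15612 TPM at HL_1h, against 10850, 13994 and 14838 TPM at ctrl_1h, 0 of the 6 being called at an adjusted or an unadjusted p below 0.05 by limma, edgeR or DESeq2. Of these 6, *RCA1* had 1 read in all libraries of each condition together and could not have been called.

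High light for 1 h changed 2909 of 13796 tested genes (21.1%), 1498 being up-regulated (10.9%) and 1411 down-regulated (10.2%). These were genes with an adjusted p below 0.05 in limma's moderated test on log2(TPM + 1), with Benjamini-Hochberg adjustment over all tested genes and no minimum fold change. Of the up-regulated genes, 92 rose at least 5-fold, 732 rose 2- to 5-fold and 674 rose less than 2-fold. Of the down-regulated genes, 101 fell at least 5-fold, 642 fell 2- to 5-fold and 668 fell less than 2-fold. All 4 HL_1h libraries lay above all 4 ctrl_1h libraries in 1274 genes (9.23%) and below them in 1133 genes (8.21%). The median log2 fold change of all tested genes was 0.00074, and the median standard deviation between replicates was 0.356 log2 units at HL_1h and 0.401 at ctrl_1h. A gene that was not called is not thereby shown to be unchanged. Fold changes of genes with few reads are understated on the log2(TPM + 1) scale.

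**Figure D1:**
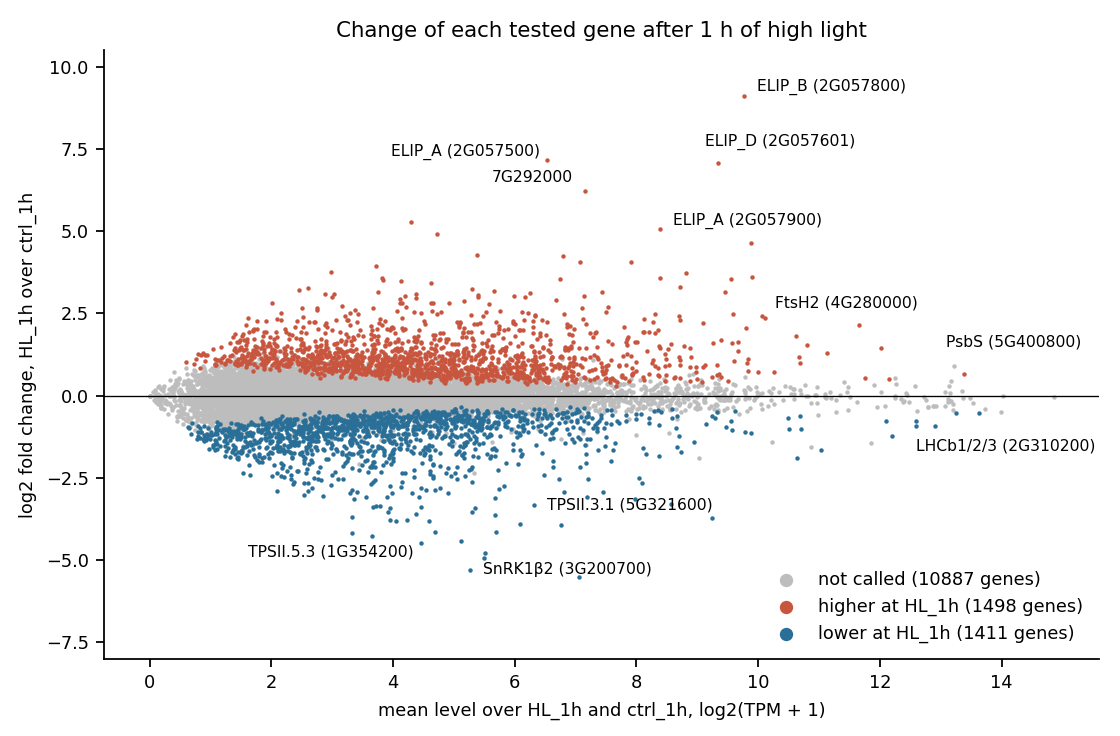
Log2 fold change of HL_1h over ctrl_1h for each of the 13796 tested genes (vertical axis) against its mean level over both conditions on the log2(TPM + 1) scale (horizontal axis), red points being the 1498 up-regulated genes, blue points the 1411 down-regulated genes and grey points those not called. The 4 *ELIP* genes lie between 5.05 and 9.12, while *SnRK1β2* (-5.29) and *TPSII.5.3* (-4.47) are among the lowest points.

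Photoprotection genes held the 3 largest rises of all tested genes, those of *ELIP* genes. Of the 16 genes on this list 12 were tested, and 9 rose (75.0%), beside 10.9% of all tested genes. By limma 0 fell (0 also at an unadjusted p below 0.05 and by edgeR or DESeq2), beside 10.2%. The median log2 fold change was 1.16 (0.00074 for all tested genes). The pathway lists used here were drawn up by the study, which had these libraries at hand, so their counts are not independent evidence of a direction. *ELIP_B* (Sevir.2G057800) was measured at 1274, 2434, 1619 and 1586 TPM at HL_1h, against 4.40, 1.76, 0.864 and 2.31 TPM at ctrl_1h. Every HL_1h library lay far above every ctrl_1h library (log2 fold change 9.12 ± 0.40 (SE), adjusted p = 7.95e-21). *ELIP_D* (Sevir.2G057601) was at 1287, 1509, 1375 and 972 TPM at HL_1h, against 14.9, 5.29, 7.49 and 8.86 TPM at ctrl_1h (log2 fold change 7.06 ± 0.23 (SE), adjusted p = 4.66e-25). Of 2 genes named *ELIP_A*, Sevir.2G057500 was at 227, 204, 174 and 126 TPM at HL_1h, against 0.826, 0.294, 0 and 0.385 TPM at ctrl_1h (log2 fold change 7.15 ± 0.25 (SE), adjusted p = 3.8e-24), its 5 reads over the 4 ctrl_1h libraries setting a ratio of TPM of 485 with a 95% counting interval of 208 to 1490. The other, Sevir.2G057900, was at 382 to 1016 TPM at HL_1h, against 14.1 to 20.6 TPM at ctrl_1h (log2 fold change 5.05 ± 0.26 (SE), adjusted p = 3.48e-18). In each of these genes the groups lay apart, the least change being that of Sevir.2G057900. These genes are neighbours by their identifiers, and the counting could divide reads between similar copies, so the split between them is uncertain. Summed over the 4 copies, ELIP transcripts reached 3169, 5163, 3758 and 3297 TPM at HL_1h, against 40.7, 21.5, 24.5 and 31.2 TPM at ctrl_1h.

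Stress-enhanced proteins (SEPs) are relatives of the ELIPs with fewer membrane helices, and 3 of the 5 *SEP* genes rose. *SEP1* (Sevir.8G209900) was at 2047, 2432, 2498 and 3630 TPM at HL_1h, against 876, 1164, 779 and 804 TPM at ctrl_1h (log2 fold change 1.53 ± 0.17 (SE), adjusted p = 4.6e-09), with no overlap between the groups. *SEP2* (Sevir.7G268700, log2 fold change 1.24) and *SEP4* (Sevir.9G451200, log2 fold change 1.09) also rose. *SEP3* (Sevir.1G101700, log2 fold change -0.30, adjusted p = 0.331) and *SEP5* (Sevir.1G232800, log2 fold change 0.05, adjusted p = 0.891) did not pass the test. *PsbS* (Sevir.5G400800), which senses the acidity of the thylakoid lumen and triggers heat dissipation, was at 10915, 13147, 11328 and 17002 TPM at HL_1h, against 7046, 8667, 6129 and 11212 TPM at ctrl_1h (log2 fold change 0.67 ± 0.21 (SE), adjusted p = 0.0189). Its groups overlapped, since ctrl_1h D exceeded HL_1h A. *PsbS* was not called without ctrl_1h A, ctrl_1h C or HL_1h D (adjusted p from 0.0601 to 0.106). In the xanthophyll cycle, zeaxanthin epoxidase *ZEP1/ABA1* (Sevir.7G124500), which converts zeaxanthin back to violaxanthin, was at 256, 336, 330.4 and 322 TPM at HL_1h, against 162, 167, 227 and 138 TPM at ctrl_1h (log2 fold change 0.85 ± 0.12 (SE), adjusted p = 9.95e-07). All HL_1h libraries were above the ctrl_1h libraries. The de-epoxidase *VDE* (Sevir.7G073400), which works in the opposite direction, was at 11.1 to 26.1 TPM at HL_1h, against 0.770 to 22.8 TPM at ctrl_1h and did not pass the test (log2 fold change 0.52, adjusted p = 0.408).

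PSII assembly and repair genes mostly moved upward where they moved at all. Among 41 tested genes 16 rose (39.0%), 3 fell (7.32%) and 22 were not called, with a median of 0.24. The shares of all tested genes were 10.9% higher and 10.2% lower. The thylakoid protease subunit *FtsH2* (Sevir.4G280000), which takes part in degrading damaged D1, was at 1331, 1959, 1829 and 2051 TPM at HL_1h, against 356, 426, 318 and 244 TPM at ctrl_1h (log2 fold change 2.41 ± 0.15 (SE), adjusted p = 2.38e-16). Its partner subunit type *FtsH1/5* (Sevir.4G298300) was at 1837, 2973, 2452 and 2544 TPM at HL_1h, against 759, 748, 696 and 542 TPM at ctrl_1h (log2 fold change 1.82 ± 0.12 (SE), adjusted p = 3.2e-15). Both subunits were higher in every HL_1h library than in any ctrl_1h library. Another subunit gene, *FtsH8* (Sevir.3G143700), was at 95.3 to 102 TPM at HL_1h, against 101 to 119 TPM at ctrl_1h and was not called (log2 fold change -0.18, adjusted p = 0.307). *PSB33* (Sevir.8G082900), known in *Arabidopsis* for stabilising PSII supercomplexes, was at 991, 1590, 1290 and 1855 TPM at HL_1h, against 290.3, 375, 259 and 433 TPM at ctrl_1h (log2 fold change 2.06 ± 0.19 (SE), adjusted p = 2.56e-11), and *MPH1* (Sevir.1G198100), known there for maintaining PSII under high light, was at 1048, 1415, 1160 and 1311 TPM at HL_1h, against 418, 394, 382 and 394 TPM at ctrl_1h (log2 fold change 1.62 ± 0.16 (SE), adjusted p = 3.17e-10). For these 2 genes, too, the groups did not overlap.

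The remaining 12 up-regulated genes of this list act mainly in building the reaction centre, by what is known from *Arabidopsis*. Of the factors for D1 synthesis, the 1-helix proteins *OHP2* (Sevir.5G216400, log2 fold change 1.60), *OHP1_B* (Sevir.4G118400, log2 fold change 1.50) and *OHP1_A* (Sevir.9G427800, log2 fold change 0.98) rose together with their partner *HCF244* (Sevir.6G252900, log2 fold change 0.77) and with the *psbA* translation factors *HCF173_B* (Sevir.4G283600, log2 fold change 1.16) and *HCF173_A* (Sevir.1G091500, log2 fold change 1.05). *OHP2* was the highest of them by fold change and was at 867 to 1454 TPM at HL_1h, against 266 to 515 TPM at ctrl_1h. The assembly factors *Psb28* (Sevir.5G452900, log2 fold change 1.13), *Met1* (Sevir.2G050700, log2 fold change 0.66) and *HCF136* (Sevir.4G302000, log2 fold change 0.60) also rose. The smallest of these rises were those of the membrane insertase *ALB3* (Sevir.5G101800, log2 fold change 0.58), the thiol oxidoreductase *LQY1* (Sevir.1G117300, log2 fold change 0.50) and *HHL1* (Sevir.1G225200, log2 fold change 0.43). *ALB3* was not called without ctrl_1h D, HL_1h B or HL_1h C (adjusted p from 0.101 to 0.227). *LQY1* was not called without ctrl_1h C, ctrl_1h D, HL_1h A, HL_1h C or HL_1h D (adjusted p from 0.0598 to 0.22). *HHL1* was not called without ctrl_1h D or HL_1h C (adjusted p from 0.109 to 0.158). The 3 genes that fell were *PAM68_A* (Sevir.9G349200, log2 fold change -0.85, adjusted p = 0.00194), an assembly factor, *LPA19* (Sevir.9G091900, log2 fold change -0.88, adjusted p = 0.0462), which aids maturation of D1, and *HCF106* (Sevir.5G384800, log2 fold change -0.40, adjusted p = 0.0418), a component of the thylakoid Tat protein translocase. *LPA19* was not called without ctrl_1h B, ctrl_1h D, HL_1h A, HL_1h C or HL_1h D (adjusted p from 0.0835 to 0.142). *HCF106* was not called without ctrl_1h B, ctrl_1h C, ctrl_1h D, HL_1h A, HL_1h B, HL_1h C or HL_1h D (adjusted p from 0.0536 to 0.147).

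**Figure D2:**
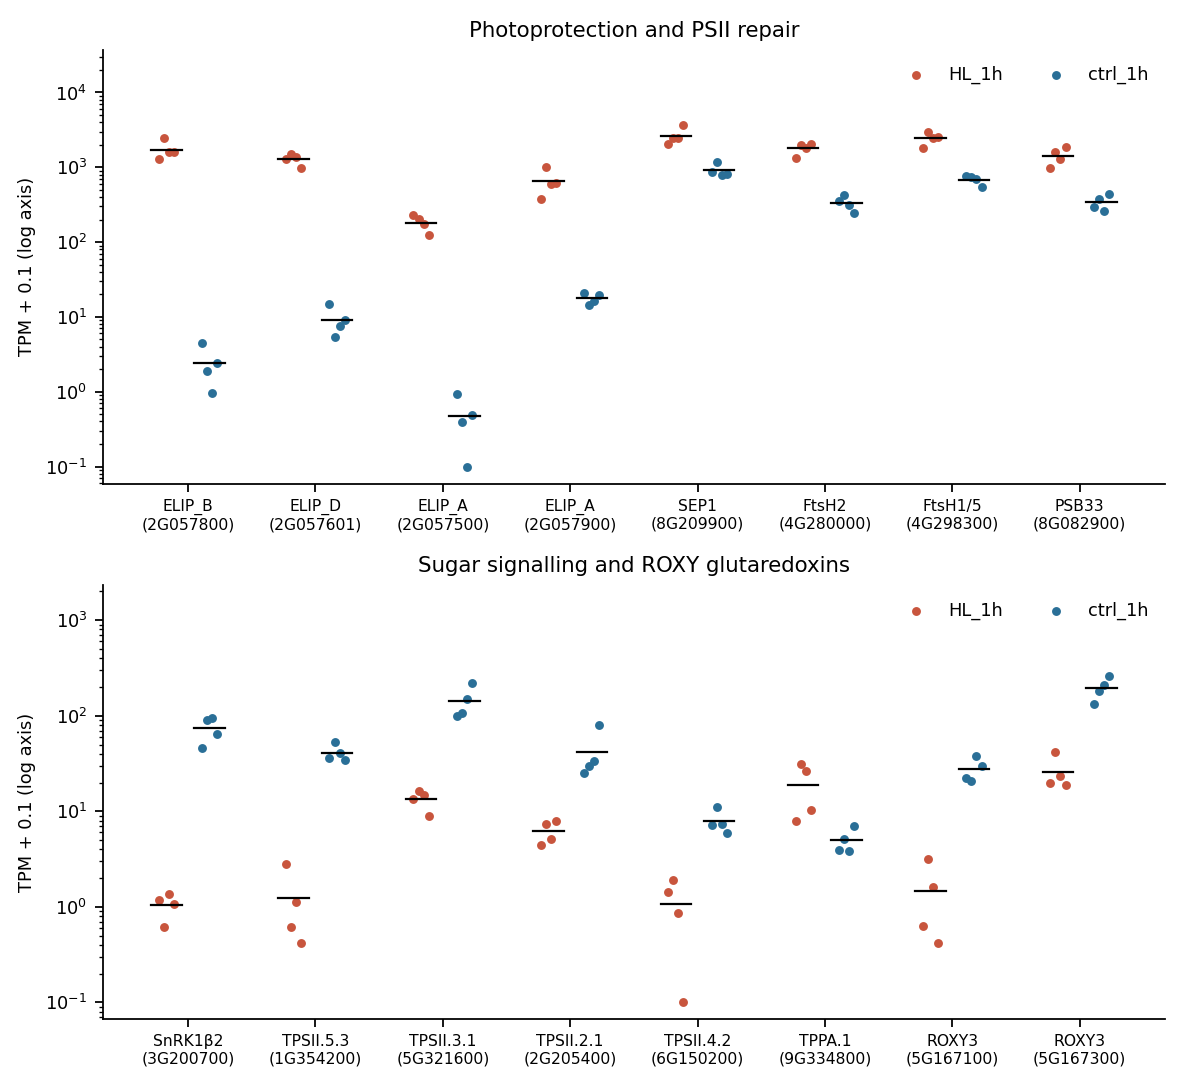
Level of 8 genes of photoprotection and PSII repair (upper panel) and 8 genes of sugar signalling and the ROXY glutaredoxins (lower panel) in each library, as TPM + 0.1 on a log axis, with red points for HL_1h, blue points for ctrl_1h (4 libraries each) and black bars for group means. In the upper panel every red point lies above every blue point of its gene. In the lower panel *TPPA.1* alone has its red points above, and the other 7 genes have them below.

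In the core photosynthetic complexes called genes were read beside the shares of all tested genes, 10.9% higher and 10.2% lower. In the LHCII antenna 1 of 9 tested genes rose (11.1%) and 2 fell (22.2%), and 1 of the 9 log2 fold changes was above 0 (median -0.32). The antenna gene *LHCb7* (Sevir.2G171200), a rare member of the family, was at 53.0, 58.6, 63.2 and 61.7 TPM at HL_1h, against 36.9, 44.7, 39.7 and 29.7 TPM at ctrl_1h (log2 fold change 0.64 ± 0.14 (SE), adjusted p = 0.000927), with the groups apart. The linker antenna genes *LHCb6* (Sevir.7G130100, log2 fold change -0.78, adjusted p = 0.0182) and *LHCb4* (Sevir.2G362400, log2 fold change -0.53, adjusted p = 0.0445) fell, with overlapping groups for *LHCb6* and, after scaling, also for *LHCb4*. *LHCb6* was not called without ctrl_1h B, ctrl_1h D or HL_1h B (adjusted p from 0.0565 to 0.144). *LHCb4* was not called without ctrl_1h A, ctrl_1h B, ctrl_1h D, HL_1h B, HL_1h C or HL_1h D (adjusted p from 0.0526 to 0.167). The major antenna gene *LHCb1/2/3* (Sevir.2G310200) was at 26617 to 31561 TPM at HL_1h, against 23960 to 41321 TPM at ctrl_1h and was not called (log2 fold change -0.04, adjusted p = 0.926). Of 9 tested PSII subunit genes only *PsbP* (Sevir.4G216200) of the oxygen-evolving complex was called, at 10305, 9980, 9695 and 11325 TPM at HL_1h, against 12756, 13400, 13709 and 20442 TPM at ctrl_1h (log2 fold change -0.53 ± 0.19 (SE), adjusted p = 0.0453). The 20442 TPM of ctrl_1h D stood far above the other ctrl_1h libraries. *PsbP* was not called without ctrl_1h D, HL_1h A, HL_1h B or HL_1h C (adjusted p from 0.0606 to 0.262). *PsbR* (Sevir.6G029700), with the next highest TPM of this list, was not called (log2 fold change -0.08, adjusted p = 0.77).

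In PSI 1 of 21 tested genes rose and 1 fell (4.76% each), and 3 of the 21 log2 fold changes were above 0 (median -0.19). The antenna gene *LHCa4* (Sevir.6G164700) was at 5647, 2959, 3966 and 4713 TPM at HL_1h, against 6626, 8524, 6552 and 10314 TPM at ctrl_1h (log2 fold change -0.91 ± 0.23 (SE), adjusted p = 0.00275), all HL_1h libraries being lower, while the assembly factor *Psa2* (Sevir.6G182300) rose (log2 fold change 0.58, adjusted p = 0.000967). *PsaO* (Sevir.7G100300, log2 fold change -0.49, adjusted p = 0.148) and *PsaG* (Sevir.2G259000, log2 fold change -0.40, adjusted p = 0.301), with the highest TPM of this list, were not called. Of 12 tested cytochrome b6f genes 2 rose (16.7%) and 1 fell (8.33%). The assembly factor *HCF164* (Sevir.9G076200) was at 121, 125, 145 and 157 TPM at HL_1h, against 69.6, 70.6, 66.8 and 71.2 TPM at ctrl_1h (log2 fold change 0.95 ± 0.14 (SE), adjusted p = 1.51e-06), with no overlap. *CCB1* (Sevir.8G148400), which attaches haem to cytochrome b6, rose slightly (log2 fold change 0.40, adjusted p = 0.0349), and *HCF153* (Sevir.5G454300) fell (log2 fold change -0.60, adjusted p = 0.0196). *CCB1* was not called without ctrl_1h A, ctrl_1h D, HL_1h C or HL_1h D (adjusted p from 0.0598 to 0.245). *HCF153* was not called without ctrl_1h D or HL_1h A (adjusted p from 0.0679 to 0.147). The Rieske protein gene *PetC* (Sevir.1G016600) was not called (log2 fold change 0.12, adjusted p = 0.724). None of the 4 ATP synthase genes was called by limma, edgeR or DESeq2 or had an unadjusted p below 0.05, their log2 fold changes lying between -0.10 and 0.43.

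Cyclic electron flow runs through PGR5 with PGRL1 and through the NDH complex, which is abundant in bundle sheath cells of C4 plants of this type. *PGR5* (Sevir.6G259600) was at 806, 871, 895 and 781 TPM at HL_1h, against 701, 641, 628 and 496 TPM at ctrl_1h (log2 fold change 0.44 ± 0.13 (SE), adjusted p = 0.00903), every HL_1h library being above every ctrl_1h library, and *PGRL1-B* (Sevir.9G004600) was not called (log2 fold change -0.04, adjusted p = 0.891). Of 32 tested NDH genes 6 fell (18.8%), beside 10.2% of all tested genes, and the median was -0.26. By limma 0 rose (1 at an unadjusted p below 0.05, 0 by edgeR or DESeq2), beside 10.9% of all tested genes. The largest fall was that of *CRR42* (Sevir.9G426800) at 16.1, 3.87, 15.2 and 6.14 TPM at HL_1h, against 45.1, 43.8, 24.8 and 20.8 TPM at ctrl_1h (log2 fold change -1.75 ± 0.29 (SE), adjusted p = 8.57e-06), with the groups apart. *CRR9* (Sevir.7G265600, log2 fold change -1.15, adjusted p = 0.00706), *CRR7* (Sevir.5G331700, log2 fold change -0.72, adjusted p = 0.0015) and the subunit gene *PnsL3/PQL2* (Sevir.2G001050, log2 fold change -0.83, adjusted p = 0.0399) were lower too. CRR proteins are known in *Arabidopsis* mainly as subunits or assembly factors of this complex. *PnsL3/PQL2* was not called without ctrl_1h B, ctrl_1h D, HL_1h A, HL_1h B or HL_1h C (adjusted p from 0.0883 to 0.19). Of the thylakoid phosphorylation enzymes, the PSII core kinase *STN8* (Sevir.3G208300, log2 fold change 0.80, adjusted p = 0.0136) and the core phosphatase *PBCP* (Sevir.5G111500, log2 fold change 0.36, adjusted p = 0.0433) rose, and the LHCII kinase *STN7* (Sevir.3G162600) was not called (log2 fold change 0.20, adjusted p = 0.262). *STN8* was not called without ctrl_1h C or HL_1h D (adjusted p from 0.0547 to 0.0828). *PBCP* was not called without ctrl_1h A, ctrl_1h B, ctrl_1h C, HL_1h B, HL_1h C or HL_1h D (adjusted p from 0.0534 to 0.149).

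Plastoglobules are lipid droplets on thylakoids that store quinones and carotenoids. Of 29 tested genes for plastoglobule proteins 13 rose and 1 fell, with a median of 0.62. The carotenoid hydroxylase *CrtR-B* (Sevir.7G220800) was at 526, 421, 448 and 438 TPM at HL_1h, against 157, 116, 53.3 and 68.6 TPM at ctrl_1h (log2 fold change 2.32 ± 0.21 (SE), adjusted p = 3.4e-11). A gene listed without a name, Sevir.5G118900, was at 87.6, 105, 93.1 and 90.2 TPM at HL_1h, against 25.04, 21.8, 23.62 and 18.5 TPM at ctrl_1h (log2 fold change 2.03 ± 0.17 (SE), adjusted p = 2.62e-12). *PBN4* (Sevir.8G183100) was at 864 to 949 TPM at HL_1h, against 197 to 403 TPM at ctrl_1h (log2 fold change 1.60 ± 0.16 (SE), adjusted p = 4.25e-10). The quinone methyltransferase-like *UbiE-MR2* (Sevir.4G208700) was at 139 to 195 TPM at HL_1h, against 69.7 to 85.0 TPM at ctrl_1h (log2 fold change 1.19 ± 0.16 (SE), adjusted p = 2.63e-07). In all of these the HL_1h libraries exceeded the ctrl_1h libraries. The gene that fell was allene oxide cyclase *AOC2* (Sevir.7G162400) of jasmonate synthesis, at 494, 400.0, 573 and 445 TPM at HL_1h, against 1163, 1358, 1155 and 469.9 TPM at ctrl_1h (log2 fold change -1.03 ± 0.20 (SE), adjusted p = 0.00012). Its HL_1h libraries were lower than 3 of the ctrl_1h libraries and overlapped with ctrl_1h D.

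**Figure D3:**
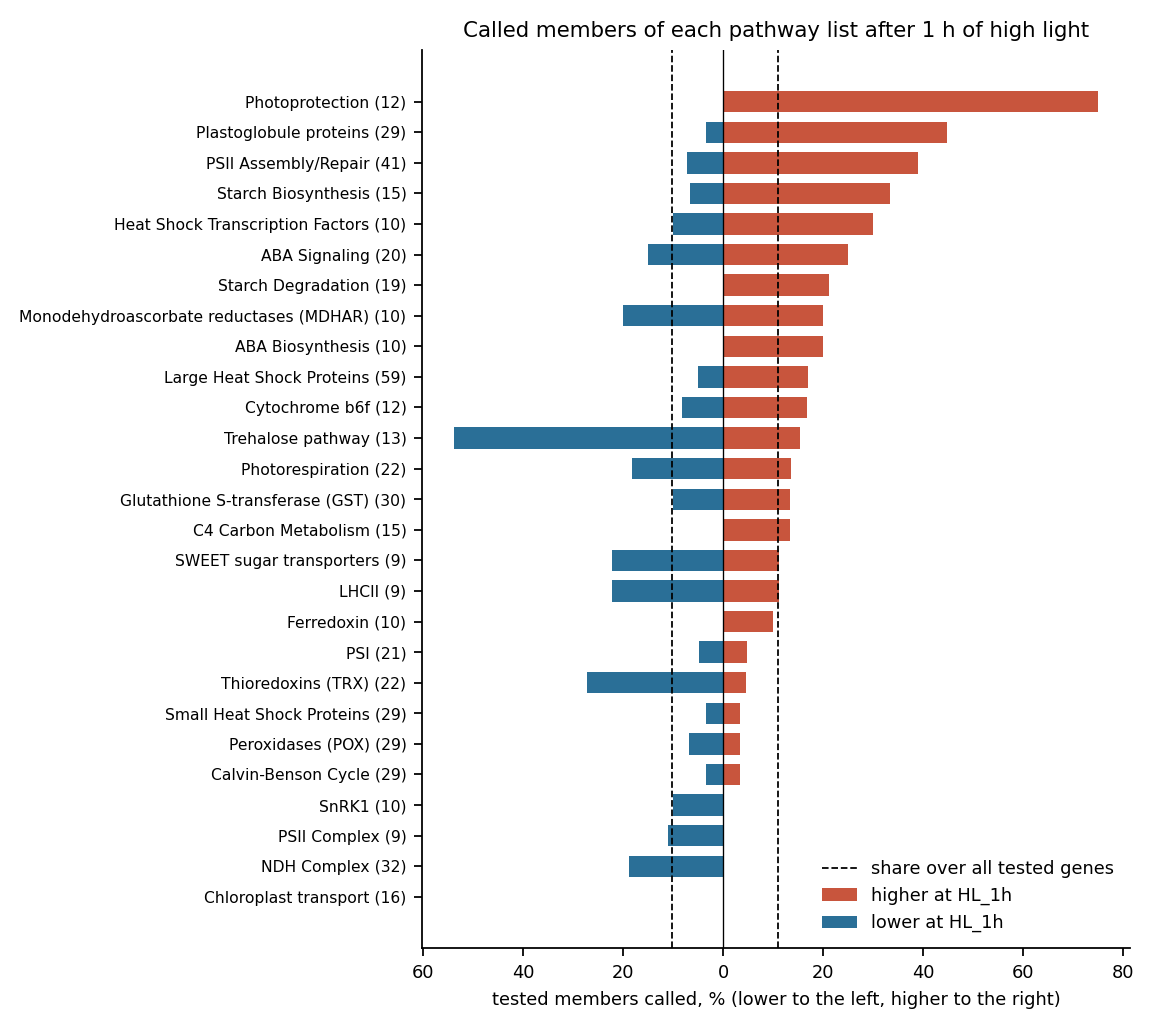
Share of tested members that rose (red, to the right) or fell (blue, to the left) at HL_1h, in percent. Each pathway list with at least 9 tested members is drawn (number tested in parentheses). Dashed lines mark the shares of all tested genes, 10.9% higher and 10.2% lower. Photoprotection reaches 75.0% higher and PSII assembly and repair 39.0%, and the longest blue bar is that of the trehalose pathway.

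In the Calvin-Benson cycle 1 of 29 tested genes rose and 1 fell (3.45% each, median -0.07), shares below the 10.9% and 10.2% of all tested genes. *RAF2* (Sevir.7G340300), a Rubisco accumulation factor, rose slightly (log2 fold change 0.48, adjusted p = 0.0252), and a transketolase gene, *TKL2_B* (Sevir.5G386700, 0 to 3.10 TPM at HL_1h, against 3.03 to 9.50 TPM at ctrl_1h), fell (log2 fold change -1.53, adjusted p = 0.00613). *RAF2* was not called without ctrl_1h C, ctrl_1h D, HL_1h A or HL_1h C (adjusted p from 0.0715 to 0.105). *TKL2_B* was not called without HL_1h A (adjusted p = 0.0569). The members with the highest TPM, *GAPB* (Sevir.9G559000) at 8007 to 9964 TPM at HL_1h, against 8178 to 9549 TPM at ctrl_1h and *RBCS* (Sevir.3G315400) at 5167 to 6479 TPM at HL_1h, against 4702 to 6259 TPM at ctrl_1h, were not called (log2 fold change 0.08, adjusted p = 0.793 and 0.09, adjusted p = 0.836). In the C4 cycle 2 of 15 tested genes rose (13.3%), a share close to the 10.9% of all tested genes, and 0 fell. *PEPC_A* (Sevir.5G145500), a phosphoenolpyruvate carboxylase gene, was at 37.5, 33.8, 67.8 and 42.6 TPM at HL_1h, against 40.45, 25.3, 28.5 and 10.8 TPM at ctrl_1h (log2 fold change 0.85, adjusted p = 0.00551), and carbonic anhydrase *CA_C* (Sevir.5G247900) was at 9.69 to 16.4 TPM at HL_1h, against 2.31 to 12.1 TPM at ctrl_1h (log2 fold change 0.74, adjusted p = 0.0373), both with overlapping groups. *PEPC_A* was not called without ctrl_1h D or HL_1h C (adjusted p from 0.0504 to 0.0708). *CA_C* was not called without ctrl_1h D, HL_1h A or HL_1h C (adjusted p from 0.0594 to 0.315). The C4 genes with the highest TPM, *PPDK* (Sevir.3G253900, log2 fold change 0.14, adjusted p = 0.595) and *CA* (Sevir.5G247800, log2 fold change 0.30, adjusted p = 0.22), were not called. None of 16 chloroplast transport genes was called by limma, edgeR or DESeq2 (1 at an unadjusted p below 0.05), with log2 fold changes from -0.52 to 0.47.

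In photorespiration, which recycles the product of Rubisco's oxygenation, 3 of 22 tested genes rose (13.6%) and 4 fell (18.2%), with a median of -0.17. The shares of all tested genes were 10.9% and 10.2%. Glycolate oxidase *GOX1_A* (Sevir.9G063600) was at 358, 326, 335 and 254 TPM at HL_1h, against 464, 446, 652 and 414 TPM at ctrl_1h (log2 fold change -0.63 ± 0.15 (SE), adjusted p = 0.00189), all HL_1h libraries being lower. Another glycolate oxidase gene, *GOX1_B* (Sevir.2G039000), was at 6.21, 3.88, 4.67 and 0 TPM at HL_1h, against 21.8, 16.2, 24.0 and 19.6 TPM at ctrl_1h (log2 fold change -2.55 ± 0.53 (SE), adjusted p = 0.000326). The serine:glyoxylate aminotransferase *AGT1/SGAT* (Sevir.6G209500) also fell (log2 fold change -1.16, adjusted p = 0.000171). The serine hydroxymethyltransferase genes moved the other way, *SHMT_A* (Sevir.8G121500) being at 506, 720.3, 596 and 596 TPM at HL_1h, against 322, 258, 409.8 and 339.7 TPM at ctrl_1h (log2 fold change 0.86 ± 0.18 (SE), adjusted p = 0.000323) and *SHMT_B* (Sevir.5G024600) having a log2 fold change of 0.69, adjusted p = 0.000111.

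Of 15 tested genes of starch synthesis 5 rose (33.3%) and 1 fell (median 0.26), and of 19 of starch breakdown 4 rose (21.1%) and 0 fell (median 0.18), beside 10.9% higher and 10.2% lower of all tested genes. The granule-bound synthase *GBSS1* (Sevir.2G118600), which makes amylose, was at 1224, 1224, 1417 and 1251 TPM at HL_1h, against 947, 643, 807 and 694 TPM at ctrl_1h (log2 fold change 0.73 ± 0.15 (SE), adjusted p = 0.000309). Debranching enzyme *DBE1/BE2* (Sevir.3G260100, log2 fold change 1.08, adjusted p = 0.00268) and starch synthase *SS2_B* (Sevir.9G243600, log2 fold change 0.79, adjusted p = 0.0211) were higher as well. In all 3 the groups did not overlap. The ADP-glucose pyrophosphorylase gene *ADG1* (Sevir.6G130500) was not called (log2 fold change -0.03, adjusted p = 0.902), and *PGSIP6* (Sevir.7G177000) fell (log2 fold change -0.72, adjusted p = 0.0336). On the breakdown side the phosphorylases *PHS2* (Sevir.5G389400) at 26.8, 18.6, 57.9 and 36.5 TPM at HL_1h, against 20.1, 9.71, 14.1 and 5.39 TPM at ctrl_1h (log2 fold change 1.45 ± 0.39 (SE), adjusted p = 0.00561) and *PHS1* (Sevir.9G083900, log2 fold change 1.17, adjusted p = 0.000813), the disproportionating enzyme *DPE2_A* (Sevir.9G536800, log2 fold change 0.54, adjusted p = 0.0183) and the glucan, water dikinase *SEX1* (Sevir.4G161000, log2 fold change 1.10, adjusted p = 0.0375) rose with overlapping groups. *SS2_B* was not called without ctrl_1h A, ctrl_1h D or HL_1h D (adjusted p from 0.0679 to 0.1). *PGSIP6* was not called without ctrl_1h A, ctrl_1h B, ctrl_1h C, HL_1h C or HL_1h D (adjusted p from 0.0725 to 0.122). *DPE2_A* was not called without ctrl_1h B, ctrl_1h D, HL_1h B or HL_1h C (adjusted p from 0.0581 to 0.104). *SEX1* was not called without ctrl_1h B, ctrl_1h D, HL_1h A, HL_1h B or HL_1h C (adjusted p from 0.0597 to 0.187). The beta-amylase *BAM1* (Sevir.9G549100) was not called (log2 fold change -0.28, adjusted p = 0.712).

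Several sugar signalling genes fell steeply. SnRK1 is a kinase complex of α, β and γ subunits that is active when energy is scarce. Of its 10 tested genes 1 was called, and it was lower at HL_1h. This count does not set the complex apart from the 10.2% of all tested genes that fell. The β subunit gene *SnRK1β2* (Sevir.3G200700) was at 1.07, 0.516, 1.26 and 0.969 TPM at HL_1h, against 45.4, 90.3, 95.3 and 64.7 TPM at ctrl_1h (log2 fold change -5.29 ± 0.29 (SE), adjusted p = 2.05e-17), which made it the gene with the next to largest fall among those named. Its 14 reads over the 4 HL_1h libraries stood against 971 reads at ctrl_1h, with no overlap. The catalytic subunit gene *SnRK1α2* (Sevir.5G307700) was not called (log2 fold change -0.34, adjusted p = 0.0713). In the TOR complex, a growth-promoting kinase, 3 of 5 genes fell and 0 rose (median -0.56). These were *TOR* (Sevir.3G281300, log2 fold change -0.58, adjusted p = 0.0342), *RAPTOR2* (Sevir.7G338000, log2 fold change -0.56, adjusted p = 0.0179) and *LST8-1* (Sevir.8G183700, log2 fold change -0.69, adjusted p = 0.0427). *TOR* was not called without ctrl_1h D, HL_1h A, HL_1h B or HL_1h C (adjusted p from 0.0606 to 0.287). *RAPTOR2* was not called without ctrl_1h D (adjusted p = 0.183). *LST8-1* was not called without ctrl_1h C, ctrl_1h D, HL_1h A, HL_1h B or HL_1h D (adjusted p from 0.052 to 0.215). The fall of the TOR genes thus depended on the libraries included, and that of *SnRK1β2* was called in every alternative.

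Trehalose 6-phosphate, a signal of sucrose status, is made by trehalose phosphate synthases (TPS) and removed by phosphatases (TPP). In this pathway 7 of 13 tested genes fell (53.8%) and 2 rose (15.4%), with a median of -1.08. The shares of all tested genes were 10.2% lower and 10.9% higher. All 5 called *TPSII* genes, of a class with regulatory rather than catalytic roles in *Arabidopsis*, were lower. *TPSII.5.3* (Sevir.1G354200) was at 2.68, 0.516, 1.01 and 0.323 TPM at HL_1h, against 36.3, 52.6, 40.3 and 34.7 TPM at ctrl_1h (log2 fold change -4.47 ± 0.39 (SE), adjusted p = 8.27e-12). *TPSII.3.1* (Sevir.5G321600) was at 13.3, 16.1, 14.7 and 8.72 TPM at HL_1h, against 99.6, 106, 151 and 218 TPM at ctrl_1h (log2 fold change -3.32 ± 0.21 (SE), adjusted p = 4.89e-16). For both the highest HL_1h library was far below the lowest ctrl_1h library. *TPSII.2.1* (Sevir.2G205400) was at 4.29, 7.23, 5.06 and 7.75 TPM at HL_1h, against 25.3, 29.7, 33.4 and 80.1 TPM at ctrl_1h (log2 fold change -2.51 ± 0.30 (SE), adjusted p = 2.49e-08). *TPSII.4.2* (Sevir.6G150200) was at 0 to 1.81 TPM at HL_1h, against 5.80 to 10.9 TPM at ctrl_1h (log2 fold change -2.29, adjusted p = 3.71e-08). *TPSII.3.2* (Sevir.5G308300) was at 4.85 to 8.84 TPM at HL_1h, against 11.8 to 15.8 TPM at ctrl_1h (log2 fold change -1.08, adjusted p = 0.000114). Of the 5 tested phosphatase genes 2 rose and 2 fell. *TPPB.1.2* (Sevir.2G195900, log2 fold change -1.18, adjusted p = 0.000284) and *TPPB.1.1* (Sevir.6G146700, log2 fold change -1.18, adjusted p = 0.00094) fell, whereas *TPPA.1* (Sevir.9G334800) at 7.77, 31.5, 26.1 and 10.3 TPM at HL_1h, against 3.85, 5.000000, 3.74 and 6.93 TPM at ctrl_1h (log2 fold change 1.58 ± 0.30 (SE), adjusted p = 0.000109) and *TPPA.3* (Sevir.1G266500) at 4.55 to 17.2 TPM at HL_1h, against 1.15 to 6.60 TPM at ctrl_1h (log2 fold change 1.45, adjusted p = 0.00339) rose. *TPPB.2.2* (Sevir.9G386700, log2 fold change -0.25, adjusted p = 0.648) was not called. The class I synthase *TPSI.1* (Sevir.3G180900), the type with catalytic activity in *Arabidopsis*, was not called (log2 fold change 0.43, adjusted p = 0.166).

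Among sugar transporters, 1 of 9 tested *SWEET* genes rose (11.1%) and 2 fell (22.2%), a count that does not set the family apart from the 10.9% and 10.2% of all tested genes. *SWEET11* (Sevir.3G333000), of a family exporting sugars across the plasma membrane, was at 223, 229, 316 and 271 TPM at HL_1h, against 536, 622, 751 and 267 TPM at ctrl_1h (log2 fold change -0.99 ± 0.18 (SE), adjusted p = 5.06e-05), with ctrl_1h D inside the HL_1h range. *SWEET1a* (Sevir.5G408600) was at 3.75, 5.42, 5.82 and 7.75 TPM at HL_1h, against 24.2, 32.6, 10.9 and 25.03 TPM at ctrl_1h (log2 fold change -1.82 ± 0.39 (SE), adjusted p = 0.000486), all HL_1h libraries being lower. *SWEET16/17* (Sevir.9G414000), related to vacuolar SWEETs, was at 33.0, 32.3, 23.3 and 22.6 TPM at HL_1h, against 9.36, 12.7, 8.06 and 23.49 TPM at ctrl_1h (log2 fold change 1.09 ± 0.29 (SE), adjusted p = 0.00538), with HL_1h C and D slightly below ctrl_1h D. The sucrose transporter gene *SUC3* (Sevir.1G210500) was at 3.21, 1.55, 2.28 and 3.88 TPM at HL_1h, against 10.2, 12.3, 9.22 and 3.85 TPM at ctrl_1h (log2 fold change -1.38 ± 0.34 (SE), adjusted p = 0.00236), with ctrl_1h D just below the highest HL_1h library. Another sucrose transporter gene, Sevir.9G528600, fell as well (log2 fold change -0.77, adjusted p = 0.0287), although it was not called without ctrl_1h B, ctrl_1h D, HL_1h A, HL_1h B or HL_1h C (adjusted p from 0.0506 to 0.258).

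Heat shock genes answered to light in a few members. Of 10 tested heat shock transcription factors 3 rose and 1 fell (median 0.40). The shares of all tested genes were 10.9% higher and 10.2% lower, and the 1 fall does not set this list apart from them. *HSFCA2* (Sevir.1G026200) was at 29.2, 26.6, 13.2 and 42.0 TPM at HL_1h, against 2.48, 2.94, 4.32 and 4.62 TPM at ctrl_1h (log2 fold change 2.58 ± 0.46 (SE), adjusted p = 2.88e-05). *HSFA6B* (Sevir.9G247200) was at 20.4, 40.3, 23.0 and 33.9 TPM at HL_1h, against 13.8, 11.2, 12.1 and 11.9 TPM at ctrl_1h (log2 fold change 1.15 ± 0.29 (SE), adjusted p = 0.00255). *HSFA8A* (Sevir.9G488900) rose less (log2 fold change 0.81, adjusted p = 0.0173), and it was not called without ctrl_1h D, HL_1h B or HL_1h C (adjusted p from 0.0508 to 0.0908). *HSFB2C* (Sevir.2G292500) was at 4.55, 10.8, 8.85 and 8.08 TPM at HL_1h, against 13.5, 15.6, 27.9 and 17.3 TPM at ctrl_1h (log2 fold change -1.13 ± 0.27 (SE), adjusted p = 0.00155). The groups were apart for all but *HSFA8A*.

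Among 59 tested large heat shock proteins, chaperones of the HSP90, HSP70 and HSP40 families, 10 rose (16.9%) and 3 fell (5.08%), with a median of 0.14. The shares of all tested genes were 10.9% and 10.2%. The *HSP70* gene Sevir.9G455800 was at 259.9, 771, 522 and 550.0 TPM at HL_1h, against 86.7, 127, 187 and 107 TPM at ctrl_1h (log2 fold change 1.99 ± 0.32 (SE), adjusted p = 6.55e-06). *HSP90.6/HSP89.1* (Sevir.3G367200) was at 21.7, 93.2, 52.1 and 62.0 TPM at HL_1h, against 11.8, 15.0, 18.1 and 11.9 TPM at ctrl_1h (log2 fold change 1.78 ± 0.26 (SE), adjusted p = 1.3e-06). *HSC70-5* (Sevir.2G266700) was at 30.6 to 75.4 TPM at HL_1h, against 11.6 to 19.5 TPM at ctrl_1h (log2 fold change 1.36 ± 0.23 (SE), adjusted p = 1.31e-05). HL_1h A was the lowest and HL_1h B the highest HL_1h library for all 3, and all were above ctrl_1h. *DNAJ/HSP40* (Sevir.4G304500) fell (log2 fold change -1.29, adjusted p = 0.00563). The genes with the highest TPM of this list, *HSP70* (Sevir.3G338300, log2 fold change -0.05, adjusted p = 0.914) and *HSP90.4/HSP81.4* (Sevir.6G207201, log2 fold change 0.50, adjusted p = 0.243), were not called. Of 29 tested small heat shock proteins 1 rose and 1 fell (3.45% each, median -0.18), shares below those of all tested genes. *HSP20* (Sevir.3G193900) was at 129 to 152 TPM at HL_1h, against 80.0 to 119 TPM at ctrl_1h (log2 fold change 0.47, adjusted p = 0.0158). *HSP17.6C* (Sevir.9G461800) was at 78.7 to 135 TPM at HL_1h, against 135 to 317 TPM at ctrl_1h (log2 fold change -0.90, adjusted p = 0.00822). *HSP20* was not called without ctrl_1h B or HL_1h D (adjusted p from 0.0518 to 0.107). *HSP17.6C* was not called without ctrl_1h D or HL_1h C (adjusted p from 0.0517 to 0.0813).

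ABA closes stomata and induces stress genes, and 9-cis-epoxycarotenoid dioxygenase (NCED) is its rate-limiting step of synthesis. Of 10 tested ABA synthesis genes 2 rose and 0 fell, namely *ZEP1/ABA1* (given above) and *NCED1* (Sevir.3G426300), which was at 90.56, 80.6, 131 and 102 TPM at HL_1h, against 77.3, 81.8, 76.9 and 22.3 TPM at ctrl_1h (log2 fold change 0.77 ± 0.23 (SE), adjusted p = 0.0134). ctrl_1h D was far below the other ctrl_1h libraries. *NCED1* was not called without ctrl_1h D or HL_1h C (adjusted p from 0.0673 to 0.176). In ABA signalling 5 of 20 tested genes rose (25.0%) and 3 fell (15.0%), beside 10.9% and 10.2% of all tested genes. The protein phosphatase 2C genes *PP2C10* (Sevir.5G211600) at 28.1, 32.5, 25.3 and 45.2 TPM at HL_1h, against 14.6, 16.5, 11.5 and 8.09 TPM at ctrl_1h (log2 fold change 1.31 ± 0.23 (SE), adjusted p = 3.26e-05) and *PP2C1* (Sevir.3G124100) at 24.6, 14.7, 14.9 and 14.2 TPM at HL_1h, against 8.53, 9.41, 6.34 and 5.78 TPM at ctrl_1h (log2 fold change 1.08 ± 0.22 (SE), adjusted p = 0.000223), of a family that restrains ABA signalling, rose. The kinase gene *SnRK2.8* (Sevir.3G004100) was at 18.8, 19.1, 23.8 and 24.2 TPM at HL_1h, against 54.5, 55.5, 58.5 and 38.9 TPM at ctrl_1h (log2 fold change -1.24 ± 0.14 (SE), adjusted p = 5.69e-09). The receptor gene *PYL1* (Sevir.9G318000) was at 14.9 to 19.7 TPM at HL_1h, against 24.3 to 36.3 TPM at ctrl_1h (log2 fold change -0.77, adjusted p = 0.000733), both lower in all HL_1h libraries.

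Of the hydrogen peroxide and superoxide scavengers, none was called by limma of the 7 ascorbate peroxidases, 7 superoxide dismutases, 2 catalases, 2 dehydroascorbate reductases and 2 glutathione reductases tested, with log2 fold changes between -0.50 and 0.43. Of them 2 had an unadjusted p below 0.05, and 1, an ascorbate peroxidase, was called lower by edgeR and DESeq2. Other redox genes did change. Glutathione peroxidase *GPX6* (Sevir.1G268300) was at 195, 228, 166 and 192 TPM at HL_1h, against 59.7, 67.3, 74.9 and 79.0 TPM at ctrl_1h (log2 fold change 1.45 ± 0.14 (SE), adjusted p = 1.21e-10). The monodehydroascorbate reductases *MDAR1* (Sevir.2G138000, log2 fold change 1.92, adjusted p = 4.67e-07) and *MDAR2* (Sevir.6G250100, log2 fold change 1.71, adjusted p = 7.94e-05) rose, and *MDAR4* (Sevir.1G295400) fell (log2 fold change -0.81, adjusted p = 0.000209), all with the groups apart. *CDSP32* (Sevir.2G323400), which the study placed on the same list and which is known as a thioredoxin-like chloroplast protein, fell too (log2 fold change -0.56, adjusted p = 0.000731). Of 8 tested genes on the peroxiredoxin list *TPX2* (Sevir.5G271100) rose (log2 fold change 0.57, adjusted p = 0.00157). *HOT5* (Sevir.5G372700), known in *Arabidopsis* as an S-nitrosoglutathione reductase rather than a peroxiredoxin, was at 0 to 1.94 TPM at HL_1h, against 3.85 to 7.98 TPM at ctrl_1h and fell (log2 fold change -2.04, adjusted p = 1.48e-05).

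Of 22 tested genes on the thioredoxin list 6 fell (27.3%) and 1 rose (4.55%), beside 10.2% lower and 10.9% higher of all tested genes. Of the largest falls 3 were those of *ROXY* genes, which belong to the CC-type glutaredoxins. *ROXY3* is the name of 2 genes. Sevir.5G167100 was at 0.536, 3.10, 1.52 and 0.323 TPM at HL_1h, against 22.3, 20.6, 37.4 and 29.7 TPM at ctrl_1h (log2 fold change -3.77 ± 0.26 (SE), adjusted p = 1.63e-14). Sevir.5G167300 was at 19.8, 42.1, 23.3 and 18.7 TPM at HL_1h, against 132, 181, 210.2 and 261 TPM at ctrl_1h (log2 fold change -2.92 ± 0.20 (SE), adjusted p = 6.5e-15). *ROXY5* (Sevir.3G359700, log2 fold change -1.99, adjusted p = 3.14e-06) and the cytosolic-type thioredoxin *TRXH2* (Sevir.9G050800, log2 fold change -1.36, adjusted p = 6.63e-05) fell as well, and none of these 4 genes had overlapping groups. Among 30 tested glutathione S-transferases, enzymes that conjugate glutathione to reactive compounds, 4 rose and 3 fell. *GSTU18* (Sevir.9G350800) was at 1897, 2157, 1566 and 1753 TPM at HL_1h, against 331, 317, 237 and 635 TPM at ctrl_1h (log2 fold change 2.36 ± 0.27 (SE), adjusted p = 5.45e-09). Sevir.5G256550 was at 25.4, 33.8, 30.9 and 24.9 TPM at HL_1h, against 6.33, 3.82, 4.32 and 5.01 TPM at ctrl_1h (log2 fold change 2.36 ± 0.27 (SE), adjusted p = 8.63e-09). *GSTF13* (Sevir.5G170800) was at 22.9 to 26.6 TPM at HL_1h, against 2.59 to 10.3 TPM at ctrl_1h (log2 fold change 1.71, adjusted p = 2.87e-05). *GSTU19* (Sevir.4G243500) fell (log2 fold change -1.16, adjusted p = 0.00879), and it was not called without HL_1h B (adjusted p = 0.059). The only tested polyphenol oxidase, *PPO1* (Sevir.1G030300), was at 37.8, 26.9, 30.4 and 29.1 TPM at HL_1h, against 2.201, 2.35, 2.02 and 1.16 TPM at ctrl_1h (log2 fold change 3.50 ± 0.41 (SE), adjusted p = 9.94e-09). Of 29 tested class III peroxidases 1 rose (3.45%) and 2 fell (6.90%), shares below those of all tested genes. The rise was that of Sevir.9G478900 (log2 fold change 1.21, adjusted p = 0.00337). Sevir.5G044800 was at 2.14, 1.03, 1.01 and 0 TPM at HL_1h, against 62.7, 26.5, 10.1 and 20.4 TPM at ctrl_1h and fell (log2 fold change -3.82, adjusted p = 1.64e-05), as did Sevir.7G136600 (log2 fold change -0.96, adjusted p = 0.0276), although this gene was not called without ctrl_1h A, HL_1h B, HL_1h C or HL_1h D (adjusted p from 0.0562 to 0.111).

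The 12 largest rises, taken among called genes whose groups did not overlap and whose mean reached 10 TPM, included the 4 *ELIP* genes and 8 genes outside the pathway lists. Annotation of these comes from the study's gene descriptions. Of the 8 genes, 4 were annotated to phenylpropanoid metabolism, the route that leads to lignin and flavonoids. Sevir.7G292000, annotated as a shikimate O-hydroxycinnamoyltransferase-like gene, was at 313, 377, 230.2 and 202 TPM at HL_1h, against 3.03, 3.23, 0.864 and 5.01 TPM at ctrl_1h (log2 fold change 6.22 ± 0.36 (SE), adjusted p = 8.88e-17). A cinnamoyl-CoA reductase-related gene, Sevir.5G247300, was at 65.4, 113, 54.6 and 79.5 TPM at HL_1h, against 2.75, 1.47, 2.02 and 8.09 TPM at ctrl_1h (log2 fold change 4.27 ± 0.39 (SE), adjusted p = 2.66e-11). The 4-coumarate:CoA ligase gene Sevir.1G288700 was at 146, 471, 186 and 204 TPM at HL_1h, against 13.8, 7.94, 8.06 and 26.6 TPM at ctrl_1h (log2 fold change 4.07 ± 0.42 (SE), adjusted p = 6.78e-10), and the phenylalanine ammonia-lyase gene Sevir.1G245300, the entry enzyme of the route, was at 607, 461, 434 and 285 TPM at HL_1h, against 49.5, 21.8, 7.49 and 45.8 TPM at ctrl_1h (log2 fold change 4.05 ± 0.46 (SE), adjusted p = 4.27e-09). For all 4 every HL_1h library was several-fold above every ctrl_1h library. No list of this pathway was tested, and these genes came forward through their values.

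Another pair of the largest rises was annotated as MATE efflux transporters, membrane proteins that export organic compounds. Sevir.7G318801 was at 1744, 2785, 1375 and 1315 TPM at HL_1h, against 79.7, 75.0, 27.1 and 132 TPM at ctrl_1h (log2 fold change 4.63 ± 0.40 (SE), adjusted p = 6.05e-12). Sevir.6G257200 was at 139, 251, 222 and 229 TPM at HL_1h, against 9.08, 11.2, 5.76 and 16.2 TPM at ctrl_1h (log2 fold change 4.24 ± 0.24 (SE), adjusted p = 2.46e-17). The last pair carried no annotation. Sevir.3G258700 was at 35.9, 45.7, 33.4 and 33.6 TPM at HL_1h, against 0, 0, 0.288 and 0 TPM at ctrl_1h, with 547 reads at HL_1h and 1 read at ctrl_1h, a ratio of 489 with a 95% counting interval of 87.4 to 19400. Sevir.9G259600 was at 45.5, 78.2, 46.3 and 31.3 TPM at HL_1h, against 0.826, 0.588, 0.576 and 0.770 TPM at ctrl_1h, a ratio of 74.8 with an interval of 39.2 to 164. These intervals cover counting error only.

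Of the 12 largest falls, *SnRK1β2* and *TPSII.5.3* are given above, and the other 10 had varied or no annotation. The largest was that of Sevir.9G109000, of unknown function, at 1.34, 4.65, 19.0 and 1.94 TPM at HL_1h, against 141, 210.0, 221 and 456 TPM at ctrl_1h (log2 fold change -5.52 ± 0.998 (SE), adjusted p = 4.27e-05). Sevir.9G064400, annotated to the mTERF family of organelle transcription factors, was at 11.5, 9.55, 13.2 and 16.5 TPM at HL_1h, against 158, 209, 230.1 and 212 TPM at ctrl_1h and had the smallest adjusted p of the 12 (log2 fold change -3.92 ± 0.18 (SE), adjusted p = 1.09e-19). The SAUR-like gene Sevir.2G306500, of an auxin-responsive family, was at 2.68, 5.94, 7.08 and 3.55 TPM at HL_1h, against 127, 96.8, 96.8 and 67.4 TPM at ctrl_1h (log2 fold change -4.14 ± 0.23 (SE), adjusted p = 1.61e-17). A kelch-repeat F-box gene, Sevir.4G238100, was at 0, 0.775, 0 and 0 TPM at HL_1h, against 7.43, 20.6, 44.4 and 19.3 TPM at ctrl_1h, with 3 reads at HL_1h and 301 at ctrl_1h (ratio 112 of ctrl_1h over HL_1h, interval 38.0 to 547), and a DnaJ-domain gene, Sevir.4G293000, had 1 read at HL_1h and 234 at ctrl_1h (ratio 262, interval 46.5 to 10400). Sevir.6G132500, annotated as related to bifunctional nuclease and wound-responsive proteins, was at 3.62 to 17.1 TPM at HL_1h, against 85.9 to 150.0 TPM at ctrl_1h (log2 fold change -3.91, adjusted p = 2.7e-14). Sevir.2G374600, with a DUF239 domain, was at 0.258 to 7.50 TPM at HL_1h, against 67.7 to 112 TPM at ctrl_1h (log2 fold change -4.80, adjusted p = 3.37e-11). The 3 genes without annotation were Sevir.5G015700 (log2 fold change -4.93, adjusted p = 1.24e-16), Sevir.3G015100 (log2 fold change -4.42, adjusted p = 9.21e-09) and Sevir.3G384650 (log2 fold change -4.14, adjusted p = 6.85e-08). Like the rises, these 12 were taken only among called genes whose groups did not overlap. That every HL_1h library lay below every ctrl_1h library is therefore a condition of the choice and not a result.

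Pathway genes that the study's lists assign to mesophyll or bundle sheath were counted as well. Of 168 tested mesophyll-labelled pathway genes 33 rose (19.6%) and 16 fell, with a median of 0.12. Of 134 bundle sheath-labelled genes 10 rose (7.46%) and 19 fell, with a median of -0.12. The shares of all tested genes were 10.9% and 10.2%. Among the cell type markers, the bundle sheath enzyme *NADP-ME* (Sevir.5G132500) was at 5595 ± 1047 TPM at HL_1h, against 5526 ± 1087 TPM at ctrl_1h (SD, n = 4 each) and the mesophyll enzyme *PPDK* at 10847 ± 1066 TPM at HL_1h, against 9958 ± 2227 TPM at ctrl_1h. *NADP-ME* was not called (log2 fold change 0.01, adjusted p = 0.984), like *PPDK* above, and no difference in cell type make-up was tested.

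Most genes called at 1 h were called in the same direction at 2 h. Of the 1498 genes up-regulated at 1 h, 945 were also among the 2260 genes up-regulated after 2 h (16.4% of tested genes), and 689 of these were up-regulated after 4 h too. Of the 1411 down-regulated genes, 907 were among the 1890 down-regulated after 2 h (13.7%), and 668 of these were down-regulated after 4 h too. Each time point had its own controls, and of all tested genes 30.1% were called either way after 2 h and 25.1% after 4 h. The difference between the light effects at 2 h and 1 h was tested in the same fit and was called in 251 genes (1.82%), being higher at 2 h in 133 (0.964%) and lower in 118 (0.855%). With the TPM as deposited, without further scaling, these were 222 and 70 genes, and without HL_1h A they were 74 and 72. A change of side was rare, since 4 genes were up-regulated at 1 h and down-regulated at 2 h and 7 the reverse.

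**Figure D4:**
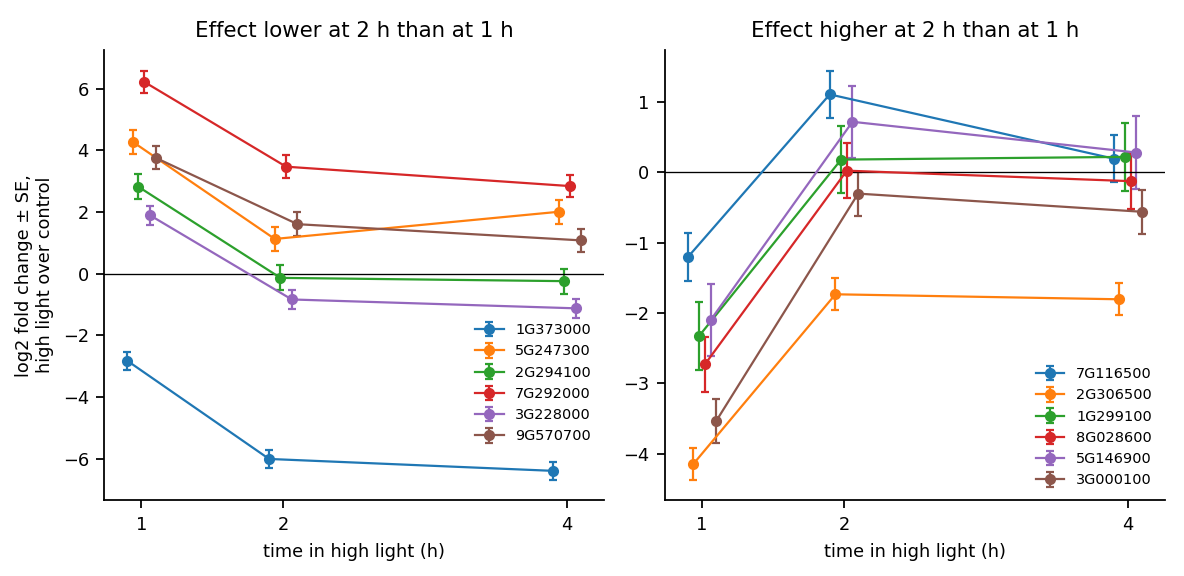
Log2 fold change of high light over the control of the same time (vertical axis, with standard error bars) after 1, 2 and 4 h for 6 genes whose effect was lower at 2 h than at 1 h (left) and 6 whose effect was higher (right), each with a rise or fall at 1 h. On the left Sevir.2G294100 goes to -0.14 at 2 h after 2.82 at 1 h, and on the right Sevir.2G306500 remains below 0 at all 3 times.

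The genes named next were chosen by their call at 1 h, and since the same 1 h libraries enter the difference, this choice favours smaller effects at 2 h. Of the 4 phenylpropanoid-annotated rises, 2 were smaller at 2 h. The light effect on Sevir.5G247300 was 4.27 at 1 h, 1.13 at 2 h and 2.01 at 4 h (change from 1 to 2 h -3.15 ± 0.55 (SE), adjusted p = 0.00085). That on Sevir.7G292000 was 6.22, 3.47 and 2.84 (change -2.75, adjusted p = 0.00177), whereas that on the phenylalanine ammonia-lyase gene was 4.05, 4.39 and 2.7 (change 0.33, adjusted p = 0.846) and the change of the 4-coumarate:CoA ligase gene Sevir.1G288700 did not pass the test (-1.38, adjusted p = 0.244). Among the ELIPs, Sevir.2G057500 had effects of 7.15, 5.12 and 5.30 (change -2.02, adjusted p = 0.000844), and *ELIP_B* of 9.12, 8.96 and 9.40 (change -0.16, adjusted p = 0.925). The cytochrome P450 gene Sevir.2G294100, annotated as *CYP78A6*-like, was at 15.54, 27.1, 62.5 and 64.6 TPM at HL_1h, against 3.03, 3.53, 10.1 and 3.08 TPM at ctrl_1h after 1 h, and its effect of 2.82 was followed by -0.14 at 2 h (change -2.95, adjusted p = 0.00238). Sevir.3G228000 had effects of 1.90 at 1 h and -0.84 at 2 h (change -2.73, adjusted p = 0.000311), and Sevir.9G570700, a rhomboid-like gene with 2 reads at ctrl_1h, had effects of 3.76 and 1.60 (change -2.15, adjusted p = 0.0272). This change was not called without HL_1h A (adjusted p = 0.0755), and with edgeR on reads recovered from the TPM it was 0.01635 (adjusted p = 0.803).

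In the other direction, Sevir.3G000100 was at 3.21, 4.91, 8.35 and 4.85 TPM at HL_1h, against 61.1, 86.8, 41.5 and 96.7 TPM at ctrl_1h after 1 h, and its effect of -3.54 at 1 h was -0.31 at 2 h (change 3.23 ± 0.44 (SE), adjusted p = 1.34e-05). The effect was also higher at 2 h for Sevir.8G028600 (effects -2.73 and 0.02), the bZIP61-like transcription factor gene Sevir.5G146900 (-2.10 and 0.71), Sevir.1G299100 (-2.33 and 0.18) and Sevir.7G116500 (-1.21 and 1.10). The 1 h fall of Sevir.7G116500 had overlapping groups and was -0.75 without ctrl_1h D (adjusted p = 0.0913) and -0.37 with the libraries of 1 of the 2 second indexes (AK2941) alone (adjusted p = 0.56). Its change of effect was 1.56 with those libraries (adjusted p = 0.106). The change of Sevir.1G299100 was called without ctrl_1h C but not without any other of the 8 libraries (adjusted p from 0.0529 to 0.11), and that of Sevir.5G146900 was not called without ctrl_1h A, ctrl_1h B or HL_1h B (adjusted p from 0.0557 to 0.076). The *SAUR*-like gene Sevir.2G306500 recovered in part (-4.14 and -1.74, change 2.41, adjusted p = 1.28e-05), and the mTERF-annotated Sevir.9G064400 likewise (-3.92 and -2.76, change 1.16, adjusted p = 0.0117). The fall of the CBS-domain gene Sevir.1G373000 instead deepened (-2.82 and -6.01, change -3.19, adjusted p = 1.11e-05). Of the chaperones, *HSP90.4/HSP81.4* had effects of 0.50 at 1 h and 2.56 at 2 h (change 2.06, adjusted p = 0.00395) and *HSC70-5* of 1.36 and 2.73 (change 1.37, adjusted p = 0.0171). *PsbS* had effects of 0.67, 1.33 and 1.89 at 1, 2 and 4 h, and its change from 1 to 2 h did not pass the test (difference of effects 0.66, adjusted p = 0.276).

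Light and heat were compared directly at 1 h, with no control in the contrast. HL_1h differed from HT_1h in 4122 genes (29.9%), being higher in 2123 (15.4%) and lower in 1999 (14.5%). Of 29 small heat shock proteins 22 were lower at HL_1h and 0 higher by limma (0 also at an unadjusted p below 0.05 and by edgeR or DESeq2), with a median log2 difference of -3.71. *HSP17.6C* was at 109, 109.8, 78.7 and 135 TPM at HL_1h, against 1881, 1812, 3328 and 3807 TPM at HT_1h (log2 fold change -4.61 ± 0.26 (SE), adjusted p = 8.32e-18), with no overlap. Of 59 large heat shock proteins 8 were higher and 20 lower at HL_1h. *HSP90.4/HSP81.4* was at 517, 1203, 520.2 and 898 TPM at HL_1h, against 3670, 3006, 2129 and 2759 TPM at HT_1h (log2 fold change -1.98 ± 0.29 (SE), adjusted p = 8.19e-07), and *HSFB2C*, which fell in high light, was at 4.55, 10.8, 8.85 and 8.08 TPM at HL_1h, against 86.4, 77.0, 63.4 and 63.1 TPM at HT_1h (log2 fold change -3.10 ± 0.27 (SE), adjusted p = 3.18e-12). *HSFCA2* was the opposite case, at 29.2, 26.6, 13.2 and 42.0 TPM at HL_1h, against 1.41, 1.64, 5.40 and 1.48 TPM at HT_1h (log2 fold change 3.09 ± 0.46 (SE), adjusted p = 7.64e-07). *HSP90.6/HSP89.1* did not pass the test (log2 fold change -0.08, adjusted p = 0.873).

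**Figure D5:**
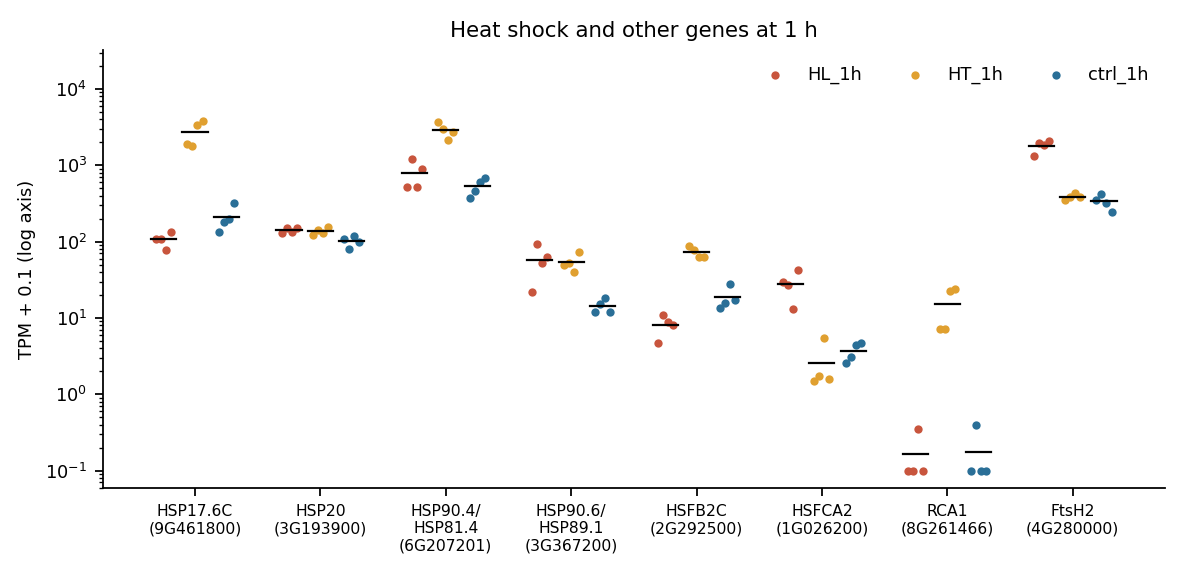
Level of 8 genes in each library of HL_1h (red), HT_1h (yellow) and ctrl_1h (blue), 4 libraries each, as TPM + 0.1 on a log axis with black bars for group means. *HSP17.6C*, *HSP90.4/HSP81.4*, *HSFB2C* and *RCA1* are highest at HT_1h, and *HSFCA2* and *FtsH2* at HL_1h.

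Photosynthesis and sugar signalling genes differed between the treatments as well. Their counts stand beside 15.4% of all tested genes higher and 14.5% lower at HL_1h than at HT_1h. PSII assembly and repair genes were higher at HL_1h than at HT_1h in 20 of 41 and lower in 2, and *FtsH2* was at 1331, 1959, 1829 and 2051 TPM at HL_1h, against 349.9, 382, 432 and 380.4 TPM at HT_1h (log2 fold change 2.17 ± 0.15 (SE), adjusted p = 2.98e-15). ELIP transcripts summed to 18.4 to 30.6 TPM over the 4 copies at HT_1h, against 21.5 to 40.7 TPM at ctrl_1h. Trehalose genes were lower at HL_1h in 8 of 13 and higher in 2, the latter count being near the share of all tested genes. *SnRK1β2* of the SnRK1 complex was at 0.516 to 1.26 TPM at HL_1h, against 80.0 to 142 TPM at HT_1h (log2 fold change -5.78, adjusted p = 5.72e-19). The phenylalanine ammonia-lyase gene Sevir.1G245300 was at 607, 461, 434 and 285 TPM at HL_1h, against 6.36, 3.82, 5.13 and 4.44 TPM at HT_1h (log2 fold change 6.20 ± 0.46 (SE), adjusted p = 3.12e-14), and the MATE gene Sevir.7G318801 at 1315 to 2785 TPM at HL_1h, against 7.41 to 17.45 TPM at HT_1h (log2 fold change 6.89, adjusted p = 2.61e-17). Both of these were below their ctrl_1h levels at HT_1h, as were 5.43% of tested genes (log2 fold changes -2.15, adjusted p = 0.000982 and -2.26, adjusted p = 8.77e-05). The Rubisco activase isoform gene *RCA1* (Sevir.8G261466) had 1 read in all HL_1h libraries together and 1 in all ctrl_1h libraries, and was at 7.07, 7.10, 22.1 and 23.7 TPM at HT_1h. *MDAR1* (log2 fold change 0.34, adjusted p = 0.377), *ZEP1/ABA1* (log2 fold change -0.19, adjusted p = 0.281) and *SEP2* (log2 fold change 0.39, adjusted p = 0.111) did not pass the test between the treatments.

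The 5 genes with the highest mean TPM at HL_1h were *LHCb1/2/3*, Sevir.7G016210, *PsaO*, *PsbS* and Sevir.7G168800, and only *PsbS* of them was called. At ctrl_1h *PsaG* and *PsbP* stood among the 5 highest in place of *PsbS* and Sevir.7G168800. Sevir.7G016210 was at 16067 to 17222 TPM at HL_1h, against 13946 to 18692 TPM at ctrl_1h (log2 fold change -0.02, adjusted p = 0.963). Sevir.7G168800 was at 12663, 16674, 15452 and 3545 TPM at HL_1h, against 10737, 2602, 11512 and 2859 TPM at ctrl_1h and was not called (log2 fold change 0.90, adjusted p = 0.301). Its HL_1h D, ctrl_1h B and ctrl_1h D libraries were low, and these 3 are the 3 of the 8 libraries whose second index is AK10751, the others carrying AK2941. Whether the index plays a part in this was not tested. With the second index as a covariate 1537 genes were up-regulated and 1441 down-regulated, and with the AK2941 libraries alone the counts were 1051 and 1028.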

How the data were processed

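Leaf RNA was sequenced from its 3′ ends (QuantSeq). By the submitters' processing notes, reads were trimmed with Trim Galore 0.6.2 and quantified per gene with Salmon 1.1.0, and DESeq2 was also used. The authors deposited 1 file per library with values named TPM, which are CPM, estimated reads scaled to the same total per library with no gene length, and a table of raw counts for the series. Of the values above 0 in these files, 95.28% to 96.56% were whole reads within 0.05. In the count table the deposited headers do not match the values at 1 h: 4 of the 40 columns hold another library than named. The TPM files were therefore used, 1 count column whose header names another condition was left out, and the count table entered an alternative only.

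TPM were divided by TMM factors (edgeR 4.0.16), log2-transformed with a pseudocount of 1 and fitted in limma 3.58.1 (trend, R 4.3.3) with 1 mean for each of 10 conditions over all 40 libraries. Of 38239 genes, of which 13214 were never above 0, the 13796 with at least 3 TPM in at least 4 libraries were tested. Genes with a Benjamini-Hochberg adjusted p below 0.05 over all tested genes were called. Counting intervals are exact binomial ones and cover counting error only. The method was tested on simulated data.

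The members and lists were chosen with earlier results of these data known. Genes were named by a rule: the 12 largest rises and falls among called genes with non-overlapping groups and a mean of at least 10 TPM, up to 4 called members of each list with the largest change and a mean of at least 5 TPM, up to 2 members of each list with the highest mean TPM, up to 6 genes in each direction whose light effect changed between 1 and 2 h, and the 5 genes with the highest mean TPM in each condition. Further members of the photoprotection, trehalose and PSII assembly lists and 1 peroxidase were named with their values known. Alternatives were other pseudocounts (0.25 and 4), filters, scalings, sample sets, covariates, edgeR and DESeq2 1.42.0 on recovered reads, and leaving out each library. Gene symbols are those of the study's lists.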

Additional observations from a re-analysis of the deposited data

Results flagged for a closer look

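Within 1 of the 2 groups, 19 of the 340 group values examined had 1 library far from the other 3, past the 95% critical value of Dixon for the gap to the nearest library. Chance alone gives this in about 1 in 20 groups. The 340 covered the genes named above and a few library measures such as total reads, and all 19 were of genes. In ctrl_1h D these were 80.1 TPM for *TPSII.2.1* (Sevir.2G205400), the others 25.3 to 33.4 TPM, 392 TPM for *CDSP32* (Sevir.2G323400), the others 289 to 298 TPM, 22.3 TPM for *NCED1* (Sevir.3G426300), the others 76.9 to 81.8 TPM, and 20442 TPM for *PsbP* (Sevir.4G216200), the others 12756 to 13709 TPM. ctrl_1h A had 76.8 TPM for *HCF106* (Sevir.5G384800), the others 92.4 to 93.6 TPM. ctrl_1h C had 10.1 TPM for Sevir.2G294100, the others 3.03 to 3.53 TPM. HL_1h A stood apart with 24.6 TPM for *PP2C1* (Sevir.3G124100), the others 14.2 to 14.9 TPM, 256 TPM for *ZEP1/ABA1* (Sevir.7G124500), the others 322 to 336 TPM, and 81.7 TPM for Sevir.7G136600, the others 51.4 to 55.9 TPM. HL_1h B did so with 22.2 TPM for *PHS1* (Sevir.9G083900), the others 48.3 to 53.3 TPM, and 7.23 TPM for *LPA19* (Sevir.9G091900), the others 5.09 to 5.31 TPM. In HL_1h C the values were 1417 TPM for *GBSS1* (Sevir.2G118600), the others 1224 to 1251 TPM, 102 TPM for *FtsH8* (Sevir.3G143700), the others 95.3 to 95.9 TPM, 47.0 TPM for *CRR7* (Sevir.5G331700), the others 39.4 to 40.03 TPM, and 26.1 TPM for *VDE* (Sevir.7G073400), the others 11.1 to 13.1 TPM. For HL_1h D they were 132 TPM for *SEP5* (Sevir.1G232800), the others all 118 TPM, 107 TPM for *MDAR1* (Sevir.2G138000), the others 68.9 to 74.1 TPM, 119 TPM for *HCF173_B* (Sevir.4G283600), the others 137 to 138 TPM, and 813 TPM for *PGRL1-B* (Sevir.9G004600), the others 704 to 713 TPM. Of the 19, 4 were in ctrl_1h D.

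The light effect differed between 2 h and 1 h, by the test of that difference within the fit, for 18 of the named genes (values are the log2 effect at 2 h minus that at 1 h). It was lower at 2 h with -3.19 for Sevir.1G373000, -2.02 for *ELIP_A* (Sevir.2G057500), -2.95 for Sevir.2G294100, -2.73 for Sevir.3G228000, -1.96 for Sevir.3G258700, -3.15 for Sevir.5G247300, -1.78 for Sevir.6G257200, -2.75 for Sevir.7G292000 and -2.15 for Sevir.9G570700, the last being 0.01635 with edgeR on recovered reads (adjusted p = 0.803). It was higher at 2 h with 2.504 for Sevir.1G299100, 1.37 for *HSC70-5* (Sevir.2G266700), 2.41 for Sevir.2G306500, 3.23 for Sevir.3G000100, 2.82 for Sevir.5G146900, 2.06 for *HSP90.4/HSP81.4* (Sevir.6G207201), 2.31 for Sevir.7G116500, 2.75 for Sevir.8G028600 and 1.16 for Sevir.9G064400.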

How the results depend on the processing

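The counts of 1498 up-regulated and 1411 down-regulated genes stayed within 1.5 times in 20 of 21 alternatives. The exception was the fit of the compared conditions alone, which estimates the spread and the scaling from fewer libraries. It gave 940 and 811 genes, 91 called list members in place of 154, and 70 and 50 genes with an effect higher or lower at 2 h. Genes past 5-fold were 92 up and 101 down, against 163 and 195 with a pseudocount of 0.25, 54 and 44 with one of 4, 167 and 234 with edgeR on reads recovered from the TPM, 167 and 233 with DESeq2, and 175 and 232 with edgeR on the count table. The 133 genes with an effect higher at 2 h became 86 without a filter, and the higher and lower genes were 222 and 70 with TPM as deposited, 55 and 67 with AK2941 libraries alone, and 210 and 192 with DESeq2, against 133 and 118. The cause of these moves was not tested. Leaving out 1 library at a time gave 1286 to 1535 up-regulated and 1210 to 1405 down-regulated genes, 89 to 110 and 92 to 107 past 5-fold, 125 to 153 called list members, 1879 to 2195 and 1798 to 2072 genes higher and lower at HL_1h than at HT_1h, and 74 to 173 and 72 to 148 genes with an effect higher and lower at 2 h, the lowest without HL_1h A. With the replicate letter as a block 1498 and 1391 genes were called. Same-letter deviations of HL_1h and ctrl_1h correlated at 0.247 (A), -0.227 (B), 0.0487 (C) and 0.0668 (D), and not every library correlated best with its own letter, so the letters were not taken as pairs. Of 145 called genes named in the text 98 were called in all 21 alternatives. The change of effect of Sevir.9G570700 turned from -2.15 to 0.01635 with edgeR on recovered reads (adjusted p = 0.803), and the cause was not tested. *SnRK1α2* and *PsaO*, not called, passed the test in at least 1 alternative. Depth limits what can be said of genes with few reads, 3 reads being worth 0.759 to 1.16 TPM in these libraries.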
